A study of Mus musculus with 15 samples.

Results

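The 39 Hox genes of mouse that had a probe set on the array were described here by cluster (Hoxa, Hoxb, Hoxc and Hoxd) and by paralog number. They were found as the probe sets whose Entrez ID maps to a symbol made of Hox, a cluster letter and a number, and they are 39 of 25206 probe sets. The Hoxa cluster, on chromosome 6, gave 11 members, the Hoxb cluster, on chromosome 11, gave 10, the Hoxc cluster, on chromosome 15, gave 9 and the Hoxd cluster, on chromosome 2, gave 9. By position, 12 members had paralog numbers 1 to 4 (the anterior genes), 15 had numbers 5 to 9 (the central genes) and 12 had numbers 10 to 13 (the posterior genes).

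The study followed mouse induced pluripotent stem cells (iPSC) that carry Acta2hrGFP, a GFP reporter for the smooth muscle actin gene Acta2, while they were directed towards smooth muscle. Total RNA from 5 groups of 3 samples was measured on 15 Affymetrix Mouse Gene 2.0 ST arrays, and every value is a log2 expression value from the authors' RMA normalization, so a difference of 1 is a 2-fold change. The groups were undifferentiated iPSC (day 0), mesodermal progenitors sorted for the receptor Kdr (day 5 Kdr+), cells sorted at day 13 for absence or presence of the reporter (day 13 GFP- and day 13 GFP+), and reporter-positive primary smooth muscle cells of the mouse aorta (aortic GFP+). The cultured samples are numbered 3, 5 and 6 and the aortic samples 1, 2 and 3. All 5 groups carry the reporter. The submitters describe each group as a biological triplicate. Separate cultures or animals, strain, age and aortic segment are not stated, so p-values measure the spread between these samples.

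Hox genes encode homeodomain transcription factors, and in the embryo the genes of a cluster are switched on in the order in which they lie on the chromosome, the low numbers first and at the front of the body, the high numbers later and towards the tail. A cell's set of active Hox genes is therefore a record of its level along the body axis, and cultured mesenchymal and vascular cells are known to keep it. Genes of equal number in different clusters are paralogs that derive from 1 ancestral gene. Hox proteins bind DNA together with Pbx and Meis cofactors, retinoic acid activates the low-numbered genes, and Polycomb complexes keep silent clusters closed.

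Kdr itself was 3.24 at day 0 and 9.64 in day 5 Kdr+ cells, and since there is no Kdr- group this does not check the sort. The mean level of 6 pluripotency markers lay between 8.15 and 8.28 in the day 0 samples and between 5.03 and 5.19 at day 5, where 5 of 6 passed as lower and all 5 measured markers of early mesoderm (of 6 listed) as higher. Acta2 averaged 10.67 in GFP- and 11.32 in GFP+ cells at day 13, a difference of 0.65 that did not pass the threshold (limma, adjusted p = 0.151). It was higher in GFP+ cells in all 3 same-numbered pairs, by 1.06, 0.47 and 0.42, and passed with the number as a block (limma, adjusted p = 0.0362). Myh11, a late contractile marker, was 4.64 in day 13 GFP+ and 11.03 in aortic GFP+ cells. Sample medians lay between 4.08 and 4.29.

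Hox signals were low on this array. Values of the 39 genes ran from 1.90 to 6.60, and only 7 of them (among them Hoxa7, Hoxb2, Hoxb3, Hoxb5, Hoxb9 and Hoxd10) had a mean over the samples above that of the median probe set, 4.28. The deposited values carry no detection calls, so a low value is not shown to lie above background, and levels were compared within a gene and not between genes. In sorted populations, fewer cells expressing a gene and less RNA per expressing cell cannot be told apart.

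Hoxd13, at the tail end of its cluster, rose furthest from day 5 to day 13, and Hoxa2, near the front of its cluster, moved furthest between day 13 and the aorta. Their upstream sequences are shown with that of Hoxa13, the paralog of Hoxd13 at the end of the Hoxa cluster, because the paralogs 13 of these clusters rose together at day 13 and Hoxa2 did not pass there. Each is the 250 bases before the annotated start (RefSeq, GRCm38.p6, written 5′ to 3′ on the gene's strand), with every CG dinucleotide in capitals.
Hoxa13, chr6:52260881-52261130, strand -: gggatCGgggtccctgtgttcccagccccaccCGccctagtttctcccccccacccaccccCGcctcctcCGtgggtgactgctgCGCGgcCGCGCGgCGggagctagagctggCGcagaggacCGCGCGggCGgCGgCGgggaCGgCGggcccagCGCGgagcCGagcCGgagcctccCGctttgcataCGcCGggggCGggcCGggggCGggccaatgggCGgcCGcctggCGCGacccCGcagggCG
Hoxd13, chr2:74667975-74668224, strand +: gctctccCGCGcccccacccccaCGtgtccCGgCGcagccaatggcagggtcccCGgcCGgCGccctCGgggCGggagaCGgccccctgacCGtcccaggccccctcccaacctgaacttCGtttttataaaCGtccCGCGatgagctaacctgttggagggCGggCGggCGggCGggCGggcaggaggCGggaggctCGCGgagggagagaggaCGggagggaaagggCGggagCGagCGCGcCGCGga
Hoxa2, chr6:52164832-52165081, strand -: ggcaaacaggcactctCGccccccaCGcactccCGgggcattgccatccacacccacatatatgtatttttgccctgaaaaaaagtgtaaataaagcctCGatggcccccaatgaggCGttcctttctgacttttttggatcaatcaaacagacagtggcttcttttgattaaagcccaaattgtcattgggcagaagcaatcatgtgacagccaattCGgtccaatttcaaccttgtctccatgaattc
The Hoxa13 window holds 35 CG dinucleotides, the Hoxd13 window 31 and the Hoxa2 window 6. A CG reads the same on both strands, so each is counted once. Windows were found for 22 of the 39 members, 24 in all, and their median count was 12.5 against 6 over 32851 windows of this length. Of the 24 windows, 19 held more CG than that median of 6, as did 46.3% of all windows. Among the posterior genes the count ran from 2 to 35. Hoxd11 had windows of 2 and 20 and Hoxa10 of 7 and 20. Hoxd10 held 20, Hoxa11 held 13, and Hoxd12, which did not pass at day 13, held 10. The window of Hoxa9, a central gene that rose in GFP+ cells, held 3. Among the anterior and central genes with a window the count ran from 3 to 28. Hoxa5 (28), Hoxa6 (24) and Hoxd4 (3) did not pass at day 13, and Hoxd1 (24) fell. No window was found for the posterior Hoxb and Hoxc genes, and a relation of the count to the rise was not tested. No methylation or binding was measured here.

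Over the 5 groups, 31 of the 39 members varied (limma moderated F test, adjusted p under 0.05), that is 79.5% against 59.0% of all probe sets. The members that did not pass were Hoxa6, Hoxb13, Hoxc12, Hoxd3, Hoxd4, Hoxd8, Hoxd9 and Hoxd12. Cluster by cluster, 10 of 11 Hoxa, 9 of 10 Hoxb, 8 of 9 Hoxc and 4 of 9 Hoxd genes varied. The median span between a gene's highest and lowest group mean was 2.15 for Hoxa, 1.30 for Hoxb, 0.82 for Hoxc and 0.50 for Hoxd, beside 0.74 over all probe sets. Within the Hoxd cluster, Hoxd13, Hoxd11 and Hoxd10 spanned 2.62, 2.18 and 1.61, while Hoxd9, Hoxd4 and Hoxd8 spanned 0.17, 0.21 and 0.26.

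The group in which a gene was highest followed its number. Hoxb1 and Hoxd1, at the front of their clusters, were highest in day 5 Kdr+ cells. Of the 20 members numbered 2 to 8, 18 were highest in aortic GFP+ cells, the exceptions being Hoxb4 (day 13 GFP-) and Hoxd4 (day 0). Of the 16 members numbered 9 to 13, 14 were highest in day 13 GFP+ cells, the exceptions being Hoxd9 (day 5) and Hoxc13 (day 0). These dividing lines were drawn after the values were seen, and Hoxa6, Hoxd3 and Hoxd8 among the 18, like Hoxb13, Hoxc12 and Hoxd12 among the 14, did not pass the F test. Over all probe sets, the aortic samples were highest for 37.7%, day 13 GFP+ for 13.0% and day 5 for 19.0%.

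**Figure D1:**
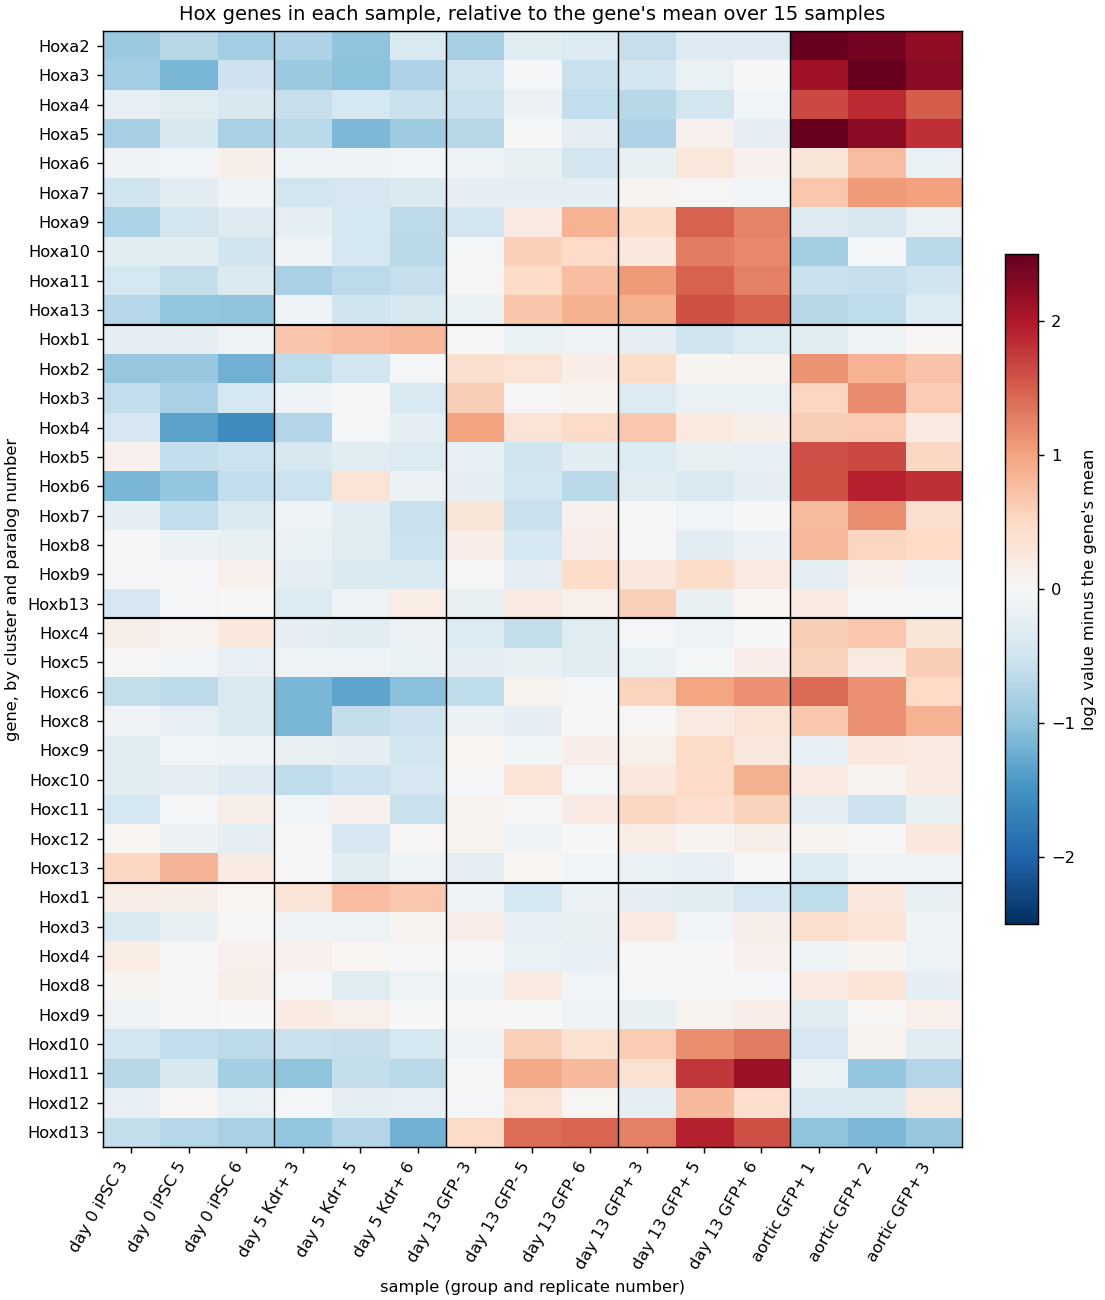
Log2 value of 38 Hox genes (vertical axis, by cluster and number) in each of the 15 samples (horizontal axis) minus that gene's mean over the samples, red above and blue below the mean. Hoxb1 and Hoxd1 are red at day 5 and numbers 2 to 8 mostly in the 3 aortic samples. Most of the higher numbers of Hoxa, Hoxc and Hoxd are red in day 13 GFP+, but Hoxc13 is highest at day 0 and Hoxd9 at day 5.

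**Figure D2:**
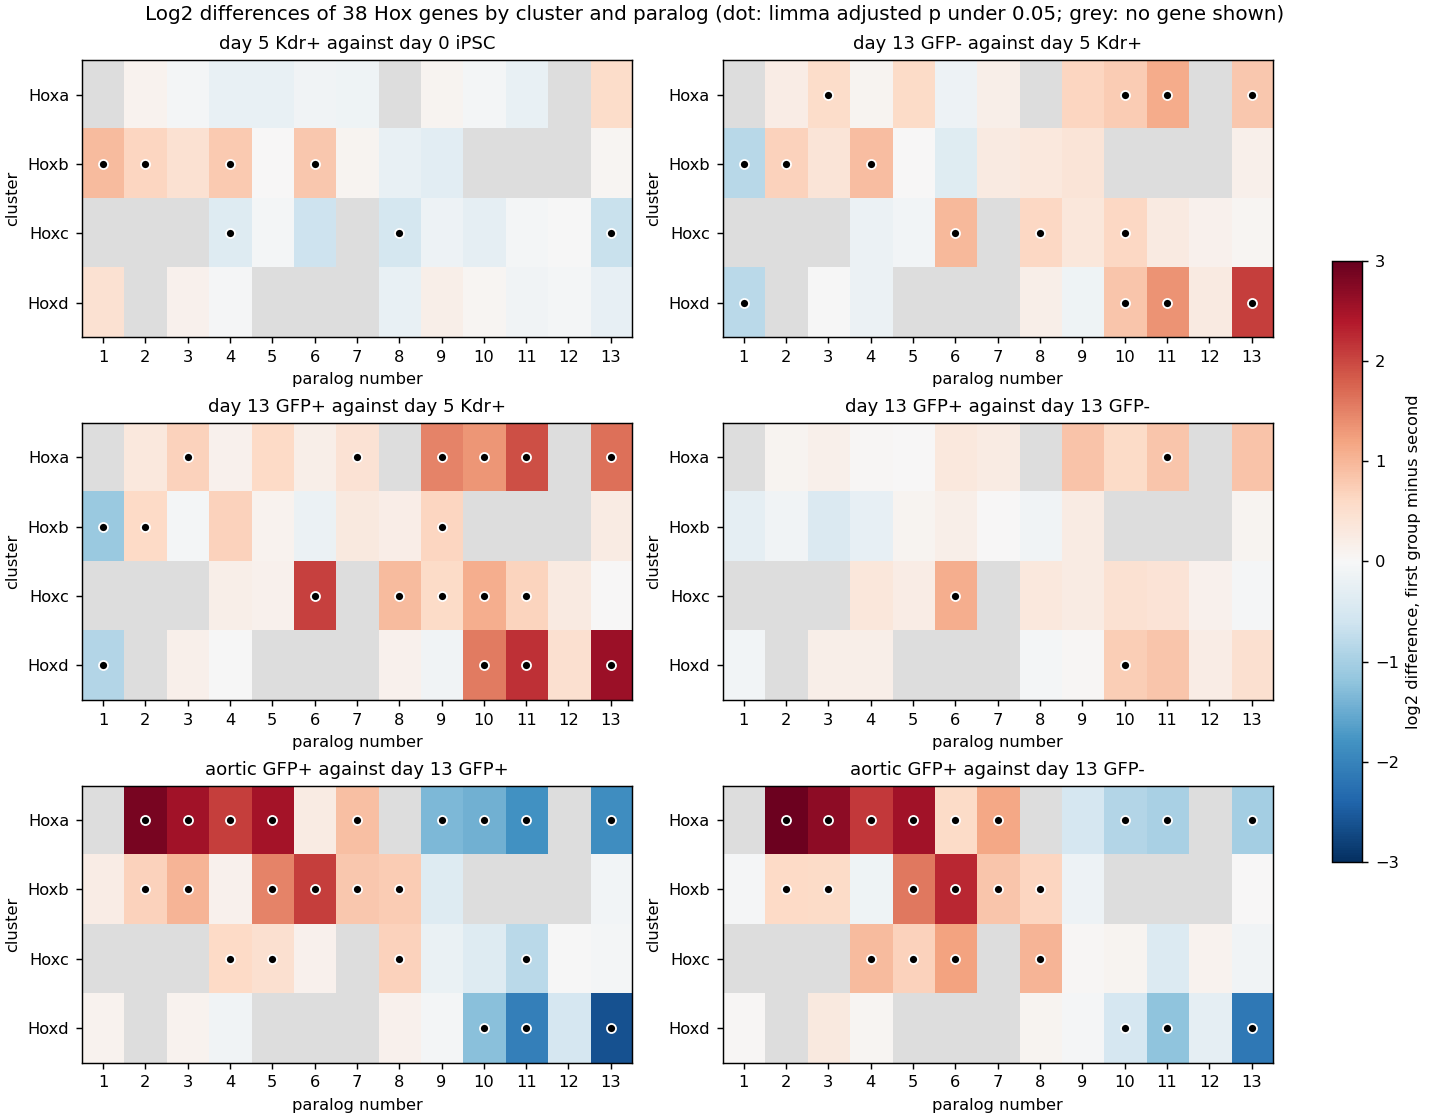
Log2 difference of the first group minus the second for 38 Hox genes, laid out by cluster (vertical axis) and paralog number (horizontal axis) in the 6 comparisons, with a black dot where limma's adjusted p was under 0.05 and grey where no gene is shown. Each panel averages 3 samples a group, and Hoxd13 against day 5 reaches 2.07 in GFP- and 2.56 in GFP+ cells.

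In Kdr+ progenitors, 4 of the 12 anterior genes were higher than at day 0, 1 (Hoxc4) was lower and 7 did not pass. Hoxb1, which patterns the hindbrain, was 3.45, 3.45 and 3.61 at day 0 and 4.39, 4.48 and 4.51 at day 5, a rise of 0.95 (SE 0.117, limma, adjusted p = 1.07e-05) with no overlap. Its paralog Hoxd1 was 3.56, 3.55 and 3.44 at day 0 and 3.72, 4.16 and 4.07 at day 5. Its groups did not overlap either, but the difference of 0.46 missed the threshold (limma, adjusted p = 0.0806).

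The other gains at day 5 that are described here by name were in the Hoxb cluster as well. Hoxb2, a hindbrain gene that follows Hoxb1, rose by 0.65 (limma, adjusted p = 0.00662), from 4.03, 4.03 and 3.77 to 4.35, 4.52 and 4.92. Hoxb6, a central gene of lateral mesoderm, rose by 0.80 (limma, adjusted p = 0.00534), from 2.82, 3.01 and 3.35 to 3.44, 4.31 and 3.83. Hoxb4, known from blood progenitors, was 3.54, 2.63 and 2.39 at day 0 and 3.23, 3.94 and 3.72 at day 5. These groups overlap, and its rise of 0.78 passed narrowly (limma, adjusted p = 0.0457).

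In the Hoxc cluster, all 9 members had a lower mean at day 5 than at day 0, as had 13002 of 25206 probe sets. The 9 differences ran from -0.66 to -0.02. Centring each array on its median moves the median of all probe sets from -0.01 to 0.08, so the sign of the smallest falls depends on the scaling. Hoxc4, Hoxc8 and Hoxc13 passed the test, with falls of 0.39, 0.52 and 0.66. Hoxc13, a hair follicle gene, was 4.79, 5.13 and 4.47 at day 0 and 4.26, 4.01 and 4.14 at day 5. Hoxc6 was lower by a mean of 0.62 without passing (limma, adjusted p = 0.0553). No Hoxd gene passed in this comparison, and no posterior gene passed except Hoxc13.

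In total 5 members were higher and 3 lower at day 5 than at day 0, 12.8% and 7.69% of the members, where 14.9% and 13.9% of all probe sets were called higher and lower. The median difference of the members was -0.05, beside -0.01 over all probe sets. Centring each array on its median, a scaling that moves the median of all probe sets from -0.01 to 0.08, gave 8 higher and 1 lower. Leaving out single samples gave 4 to 6 higher and 1 to 4 lower. Hoxb4 lost its call without day 0 sample 5 or 6, day 5 sample 5 or 6, day 13 GFP- sample 6, day 13 GFP+ sample 5 or 6, or aortic sample 1 or 2. Hoxc4 lost it without day 0 sample 3 or 6 or day 5 sample 3 or 5, and Hoxc8 without day 0 sample 3 or 5 or day 5 sample 3. Over all single omissions their differences lay between 0.55 and 1.12 (Hoxb4), -0.43 and -0.34 (Hoxc4), and -0.64 and -0.32 (Hoxc8).

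By day 13 Hoxb1 and Hoxd1 were down in both sorts. Hoxb1 was 3.71, 3.53 and 3.61 in GFP- and 3.47, 3.20 and 3.35 in GFP+ cells, below every day 5 sample. The fall from day 5 was 0.84 in GFP- (SE 0.117, limma, adjusted p = 4.71e-05) and 1.12 in GFP+ cells (SE 0.117, limma, adjusted p = 1.57e-06). Hoxd1 fell by 0.81 and 0.89, to 3.17 and 3.09. Day 5 samples enter the rise and the fall alike, as they enter both day 13 comparisons.

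**Figure D3:**
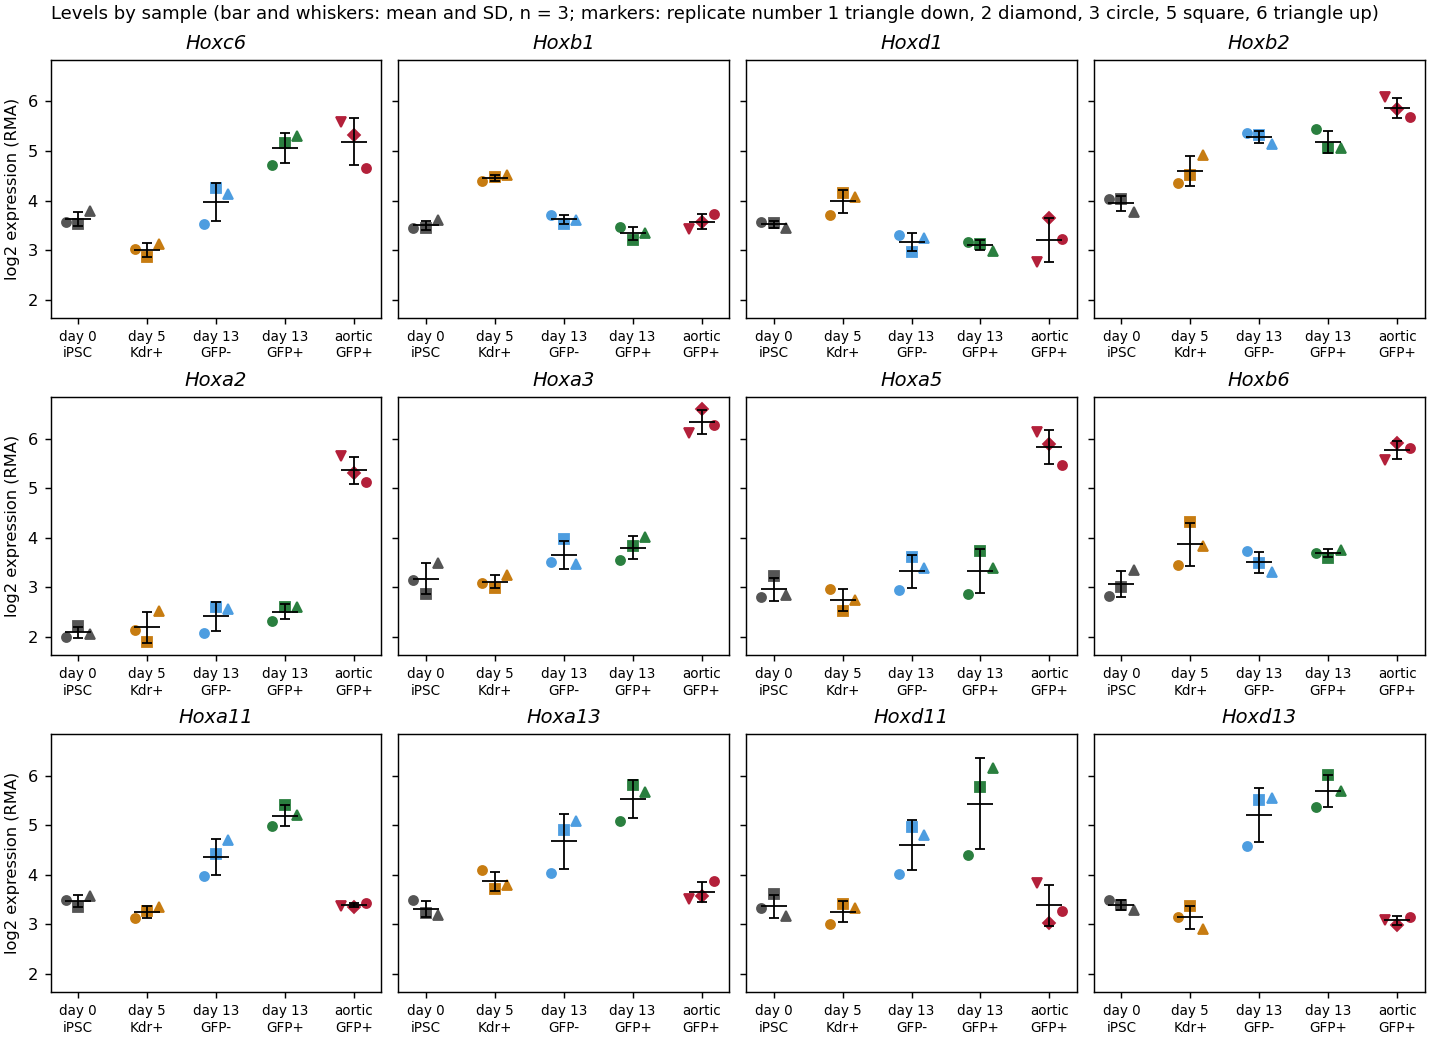
Log2 level of 12 Hox genes (vertical axis, 1 panel a gene) in the 15 samples by group (horizontal axis), with the mean and SD of 3 samples as bar and whiskers and the replicate number as marker shape. Hoxb1 peaks at day 5 (mean 4.46), Hoxa2, Hoxa3, Hoxa5 and Hoxb6 stand apart in the aorta, Hoxa11, Hoxd11 and Hoxd13 lie above day 5 in all day 13 samples, and Hoxa13 does in all but GFP- sample 3.

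Of the 12 posterior genes, 7 rose from day 5 in GFP- and 8 in GFP+ cells. Hoxd13, a gene of the digits, genital tubercle and hindgut, was 3.13, 3.37 and 2.91 at day 5, then 4.57, 5.50 and 5.55 in GFP- and 5.36, 6.02 and 5.69 in GFP+ cells. Every day 13 sample stood more than 1 log2 unit above every day 5 sample. The rise was 2.07 in GFP- (SE 0.225, limma, adjusted p = 4.1e-06) and 2.56 in GFP+ cells (SE 0.225, limma, adjusted p = 2.59e-07).

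Its neighbours towards the front of the cluster followed. Hoxd11, a gene of the forearm and kidney with Hoxa11, was 3.00, 3.41 and 3.33 at day 5, 4.01, 4.96 and 4.81 in GFP- and 4.39, 5.76 and 6.15 in GFP+ cells. It rose by 1.34 (SE 0.362, limma, adjusted p = 0.0106) and 2.18 (SE 0.362, limma, adjusted p = 0.000166). Hoxd10, of the lumbar spinal cord and hindlimb, rose by 0.82 and 1.56, from 4.32, 4.30 and 4.44 to 4.79, 5.48 and 5.26 in GFP- and 5.51, 6.06 and 6.18 in GFP+ cells. The RefSeq models of Hoxd10 and Hoxd11 overlap, so their probe sets may share transcripts. Hoxd12 lies between Hoxd11 and Hoxd13 and did not pass in either sort, at means of 2.92 at day 5, 3.18 in GFP- and 3.41 in GFP+ cells.

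Posterior Hoxa genes rose as well. Hoxa11 was 3.12, 3.27 and 3.35 at day 5, 3.96, 4.41 and 4.69 in GFP- and 4.99, 5.40 and 5.20 in GFP+ cells, with no overlap between any 2 of these groups. Its rises were 1.11 (SE 0.164, limma, adjusted p = 8.49e-05) and 1.95 (SE 0.164, limma, adjusted p = 1.59e-07). Hoxa13, needed for digits and for the hindgut and umbilical arteries, was 4.09, 3.71 and 3.79 at day 5, 4.04, 4.90 and 5.09 in GFP- and 5.08, 5.80 and 5.68 in GFP+ cells. GFP- sample 3 lay inside the day 5 range, the GFP+ samples all lay above it, and the rises were 0.81 and 1.66. Hoxa10, of the uterus and limb, rose by 0.75 and 1.32. Hoxa9, known from blood and leukemia, was 0.65 higher in GFP- without passing (limma, adjusted p = 0.126) and rose by 1.50 in GFP+ cells (limma, adjusted p = 0.000655).

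In the Hoxc cluster the central gene Hoxc6 moved most. It was 3.02, 2.85 and 3.13 at day 5, 3.53, 4.26 and 4.12 in GFP- and 4.72, 5.15 and 5.30 in GFP+ cells, rises of 0.97 (SE 0.23, limma, adjusted p = 0.00453) and 2.06 (SE 0.23, limma, adjusted p = 3.26e-06). Hoxc8 and Hoxc10 rose in both sorts, by 0.63 and 0.61 in GFP- and by 0.95 and 1.08 in GFP+ cells. Day 5 was the lowest group for Hoxc6, Hoxc8 and Hoxc10, whose day 0 means were 3.62, 3.63 and 3.89. In GFP- cells the means were 3.97, 3.73 and 4.24. GFP- sample 3 of Hoxc6 and samples 3 and 5 of Hoxc8 lay inside the day 0 range, while all GFP+ samples lay above it. Day 13 against day 0 was not tested. Hoxc9 and Hoxc11 rose in GFP+ cells, by 0.58 and 0.68, and did not pass in GFP- cells, and the difference between the sorts did not pass for either. Hoxc12 and Hoxc13, the end of that cluster, did not pass in either sort, with differences of 0.26 and 0.01 in GFP+ cells.

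In the Hoxb cluster 2 of 10 genes were higher and 1 lower than at day 5 in each sort. Hoxb2 rose further, to 5.37, 5.32 and 5.14 in GFP- and 5.44, 5.05 and 5.05 in GFP+ cells, by 0.68 and 0.59 from day 5. Hoxb4 rose by 0.94 in GFP- cells (limma, adjusted p = 0.0186) and Hoxb9 by 0.64 in GFP+ cells (limma, adjusted p = 0.00462). Neither passed in the opposite sort. The difference between the sorts did not pass for Hoxb4 or Hoxb9 (limma, adjusted p = 0.812 and 0.586). Hoxb13, the posterior end of the cluster, stayed between 3.16 and 4.17 in all samples, with GFP+ sample 3 the highest. The anterior gene Hoxa3 rose by 0.54 and 0.69, and the central gene Hoxa7 by 0.43 in GFP+ cells. For Hoxa7 the difference between the sorts did not pass (limma, adjusted p = 0.406).

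Against day 5, 12 members were higher and 3 lower in GFP- cells, or 30.8% and 7.69%, where 12.0% and 13.9% of all probe sets were called. In GFP+ cells 16 were higher and 3 lower, 41.0% and 7.69% against 14.3% and 16.9%. Among the 12 posterior genes 7 were higher in GFP- cells (median 0.68) and 8 in GFP+ cells (median 1.20), and 0 were lower. Of the 15 central genes 2 and 6 were higher. The median over all probe sets was -0.03 and -0.00417, and centring moved it to -0.13 and -0.11.

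Some of these calls rest on few samples. In GFP- cells the call was lost without a single sample for Hoxa3 (day 0 sample 3, any day 5 sample, GFP- or GFP+ sample 5, aortic sample 3), for Hoxa10 (any day 0 sample, day 5 sample 5 or 6, GFP- sample 5 or 6, GFP+ sample 6, aortic sample 3) and for Hoxa13 (day 5 or GFP- samples 5 or 6). The same held for Hoxb4 (day 5 or GFP- sample 3), Hoxc8 (day 5 sample 3 or GFP- sample 6) and Hoxd11 (GFP- sample 5). Their smallest differences under any omission were 0.38 for Hoxa3, 0.61 for Hoxa10, 0.60 for Hoxa13, 0.74 for Hoxb4, 0.43 for Hoxc8 and 1.16 for Hoxd11. In GFP+ cells Hoxa3 lost its call (highest limma adjusted p 0.0523) when GFP+ sample 6 was left out. Hoxa7 and Hoxb2 lost theirs (0.0564 and 0.0712) when sample 3 of day 5 or of the GFP+ sort was left out.

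The reporter sorts differed from each other at 3 Hox genes, all higher in GFP+ cells. Hoxc6 was higher by 1.09 (SE 0.23, limma, adjusted p = 0.0118), Hoxa11 by 0.84 (SE 0.164, limma, adjusted p = 0.00727) and Hoxd10 by 0.74 (SE 0.194, limma, adjusted p = 0.0421). The GFP+ values of Hoxc6, Hoxa11 and Hoxd10 given above all lie above the GFP- values. The share called was 7.69% of the members against 2.02% of all probe sets called higher, and 0 members against 2.52% called lower. At an unadjusted p under 0.05, 10 members were higher and 2, Hoxb1 and Hoxb3, were lower, beside 6.83% and 7.98% of all probe sets. The median of the members was 0.17, beside 0.01 over all probe sets.

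Day 13 samples of equal number deviated together over all probe sets, so the sorts were also compared with the number as a block. Samples 5 and 6 of opposite sorts also deviated together (r 0.345 and 0.278). With the block 7 members were higher in GFP+ cells and 0 lower, where 4.15% and 4.30% of all probe sets were called. The 7 were Hoxa9 (0.85, limma, adjusted p = 0.0213), Hoxa10 (0.57, 0.0328), Hoxa11 (0.84, 0.00947), Hoxa13 (0.85, 0.00673), Hoxc6 (1.09, 0.0019), Hoxd10 (0.74, 0.00868) and Hoxd11 (0.84, 0.0267). Hoxd13, the gene furthest above day 5, differed between the sorts by 0.48 and did not pass (0.0844 with the block and 0.332 without). Hoxc6 lost its call without GFP+ sample 6, where its difference was 0.97. The Hoxd10 call was lost in 10 of 15 single omissions (any day 0 or day 5 sample, GFP- sample 3 or 6, GFP+ sample 5 or 6), with differences from 0.54 to 0.94. Leaving out GFP+ sample 6 gave 1 higher member and leaving out GFP+ sample 3 gave 8, the lowest and highest of 15 single omissions, and a fit on these 2 groups alone gave 0.

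**Figure D4:**
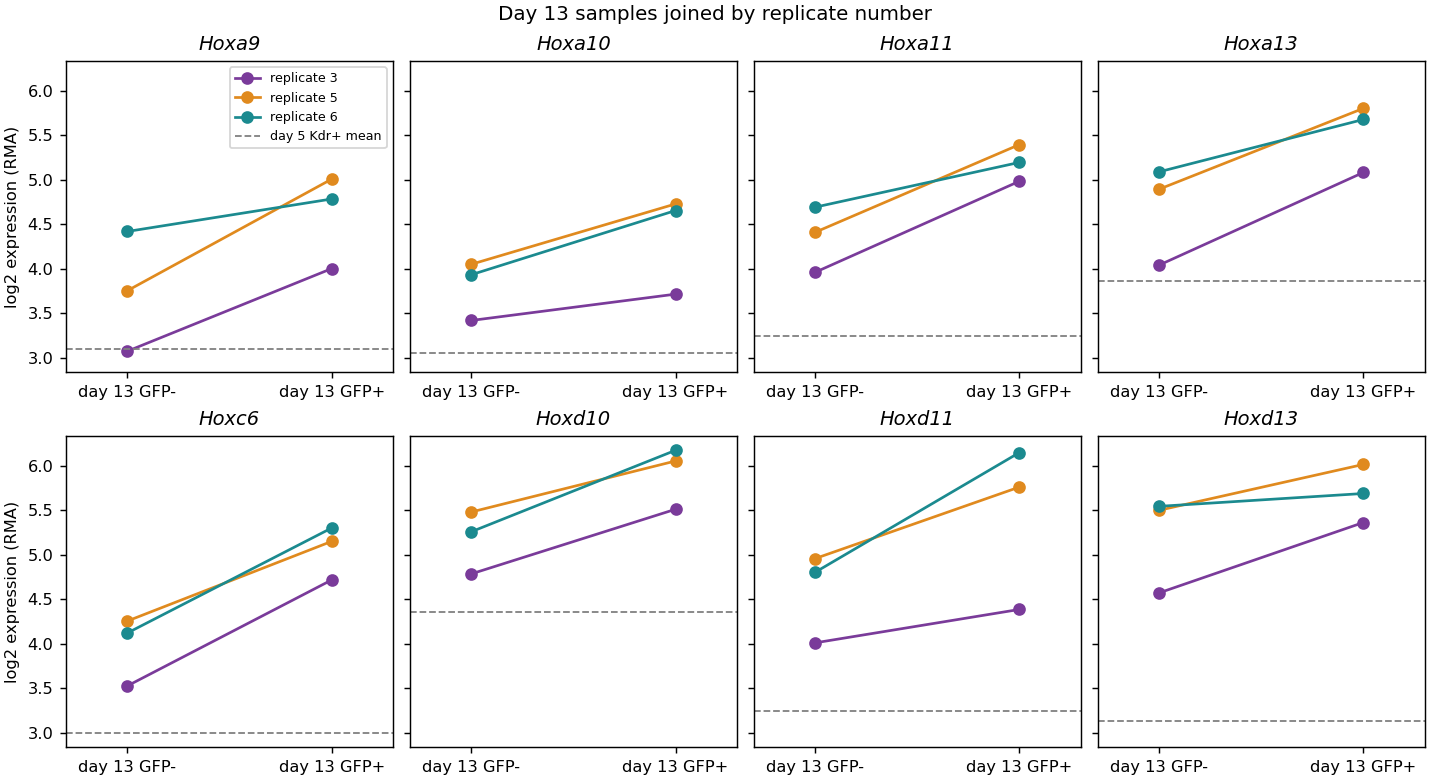
Log2 level of 8 Hox genes (vertical axis) in the day 13 GFP- and GFP+ samples (horizontal axis), with samples of equal number joined by a line and the day 5 mean dashed. In each of the 8 panels all 3 lines rise from GFP- to GFP+, and the line of number 3 lies lowest.

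Samples of equal number also moved together at these genes. In all 3 pairs the GFP+ sample was above its GFP- partner for 18 of 39 members, including 9 of the 12 posterior genes and 8 of the 9 Hoxc genes, against 21.5% of all probe sets. It was below in all pairs for 3, Hoxb1, Hoxb3 and Hoxb4, against 20.5%. Sample 3 was the lowest of its sort in both sorts for 11 members (Hoxa2, Hoxa5, Hoxa9, Hoxa10, Hoxa11, Hoxa13, Hoxc6, Hoxd10, Hoxd11, Hoxd12 and Hoxd13), against 19.2% of all probe sets, and highest in both for 7, against 25.3%. For the 12 posterior genes the median of sample 3 minus the mean of samples 5 and 6 was -0.47 in GFP- and -0.45 in GFP+ cells, beside 0.04 and 0.02 over all probe sets. The 4 Hoxb genes numbered 1 to 4 had medians of 0.37 and 0.29. Left out together, a choice made after these values were seen, the samples numbered 3 left 5 members higher in GFP+ than in GFP- cells.

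Markers of other cells moved with the sorts. All 6 endoderm markers (Sox17, Foxa2, Afp, Ttr, Apoa1 and Apob) were higher in GFP- than in day 5 cells and lower in GFP+ than in GFP- cells, and their mean level lay between 5.77 and 6.19 in GFP- and between 4.21 and 4.32 in GFP+ samples. Endothelial markers were higher in GFP- than in day 5 cells for 6 of 6, and lower in GFP+ than in GFP- for 3 of 6 (mean levels 5.08 to 5.19 and 4.19 to 4.39). Of 5 early mesoderm markers 2, Mixl1 and Eomes, were lower in GFP+ than in GFP- cells (means 3.82 against 5.45 and 5.09 against 7.52), and the list's mean level lay between 4.70 and 5.55 in GFP- and between 3.89 and 4.52 in GFP+ samples. In GFP+ cells against day 5, 0 of 6 endoderm markers passed. The mean level of these 6 markers was at most 4.09 in a day 5 sample, below that of every GFP+ sample. Smooth muscle markers were higher than at day 5 for 4 of 6 in GFP- and 6 of 6 in GFP+ cells, and 1 of 6 was higher in GFP+ than in GFP- cells. With the number as a block, 2 of 6 smooth muscle markers were higher in GFP+ than in GFP- cells, and 1 endothelial marker was higher and 4 lower. Neural markers passed for at most 1 of 6 in either direction. The part of other cells in the Hox difference between the sorts was not tested.

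Aortic smooth muscle cells carried a different set. Hoxa2, which specifies the hindbrain and pharyngeal arch neural crest, was between 1.90 and 2.60 in all 12 cultured samples and 5.65, 5.31 and 5.12 in the aortic samples. The difference from day 13 GFP+ cells was 2.86 (SE 0.186, limma, adjusted p = 6.67e-09). Hoxa3, required for the carotid arteries, thymus and parathyroid, was 6.12, 6.60 and 6.27 in the aorta against 3.54, 3.84 and 4.02 in GFP+ cells, a difference of 2.53 (SE 0.19, limma, adjusted p = 3.32e-08). Hoxa5, a gene of the lung and cervical skeleton, was 6.14, 5.89 and 5.46 against 2.86, 3.74 and 3.39, a difference of 2.50 (SE 0.236, limma, adjusted p = 4.6e-07). None of these groups overlap.

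Hoxa4 was higher in the aorta by 2.08, Hoxb6 by 2.08 and Hoxb5 by 1.50. Hoxb6 was 5.57, 5.92 and 5.80 in the aortic samples and 3.69, 3.59 and 3.75 in GFP+ cells. Hoxb5 was 6.02, 6.07 and 4.93 in the aorta, where sample 3 stood more than 1 log2 unit below the others but still above the GFP+ values of 4.08, 4.22 and 4.22. Also higher than in GFP+ cells were Hoxa7 (0.91), Hoxb3 (1.01), Hoxb2 (0.70), Hoxb7 (0.82), Hoxb8 (0.75), Hoxc4 (0.59), Hoxc5 (0.48) and Hoxc8 (0.70). Hoxc6 did not pass, at 5.58, 5.32 and 4.66 in the aorta against 4.72, 5.15 and 5.30 in GFP+ cells, a difference of 0.12 with SE 0.23 (limma, adjusted p = 0.707). The RefSeq model of Hoxa3 overlaps those of Hoxa4, Hoxa5 and Hoxa6, and the models of Hoxb3 and Hoxb4 overlap, so part of a signal could come from a shared transcript.

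Of the 12 posterior genes, 7 were lower in the aorta than in GFP+ cells. Hoxd13 was 3.09, 2.98 and 3.15 there, 2.62 below day 13 GFP+ cells (SE 0.225, limma, adjusted p = 1.6e-07) beside day 0 values of 3.49, 3.38 and 3.29. Hoxd11 fell by 2.06, Hoxa13 by 1.87, Hoxa11 by 1.81, Hoxa10 by 1.44, Hoxa9 by 1.36, Hoxd10 by 1.24 and Hoxc11 by 0.82 relative to GFP+ cells. Hoxa11 was 3.37, 3.34 and 3.42 in the aortic samples, and Hoxa13 was 3.51, 3.57 and 3.87. All 12 posterior differences were negative (median -1.03). The remaining posterior genes, Hoxb13, Hoxc10, Hoxc12, Hoxc13 and Hoxd12, did not pass.

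Against day 13 GFP+ cells, 15 members were higher and 8 lower in the aorta, 38.5% and 20.5%, where 17.7% and 19.5% of all probe sets were called. By position, 7 of 12 anterior genes (median 0.64) and 8 of 15 central genes (median 0.48) were higher, 1 central gene (Hoxa9) was lower and 0 posterior genes were higher. By cluster, Hoxb had 6 higher and 0 lower, Hoxa 6 and 4, Hoxc 3 and 1, and Hoxd 0 and 3. No sample left out alone ended a member's call here. Aortic samples also differed in other cells' markers: 5 of 6 endothelial markers were higher than in GFP+ cells (mean levels 5.70 to 6.16 against 4.19 to 4.39), and their part in the Hox difference was not tested. All 6 smooth muscle markers were higher as well.

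Against GFP- cells the aorta gave 17 members higher and 6 lower, 43.6% and 15.4% against 20.2% and 21.7% of all probe sets. This comparison shares its aortic samples with the one before. Markers of other cells differed here too: all 6 endoderm markers were lower than in GFP- cells (mean levels 4.01 to 4.31 against 5.77 to 6.19), 3 of 5 early mesoderm markers were lower and 3 of 6 endothelial markers higher. Their part in the Hox difference was not tested. Among the higher members the largest differences were again Hoxa2 at 2.95, Hoxa3 at 2.68, Hoxa5 at 2.51, Hoxb6 at 2.26 and Hoxa4 at 2.11. Hoxc6 was 1.21 above GFP- cells (limma, adjusted p = 0.000483), whereas its difference from GFP+ cells had not passed. The 6 lower members were Hoxd13 (-2.13), Hoxd11 (-1.21), Hoxa13 (-1.03), Hoxa11 (-0.98), Hoxa10 (-0.87) and Hoxd10 (-0.51). Calls were lost without single samples for Hoxa6 (GFP- sample 6, aortic sample 1 or 2), Hoxa10 (GFP- sample 5 or 6, aortic sample 1 or 3), Hoxb3 (GFP- sample 5 or 6, aortic sample 2) and Hoxd11 (GFP- sample 5, aortic sample 2). Under any omission these differences lay between 0.33 and 0.80, -1.11 and -0.71, 0.37 and 0.76, and -1.50 and -1.03. For Hoxd10, 11 omissions lost the call (any day 0 or day 5 sample, GFP- sample 5 or 6, GFP+ sample 5, aortic sample 1 or 3), between -0.70 and -0.35. Omissions left 3 to 7 lower members, 3 of them without GFP- sample 5.

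Noncoding genes within the clusters were measured for 8 of 15 listed. Hoxa11os, the antisense transcript of Hoxa11, was 2.30, 2.47 and 2.63 at day 5, 3.13, 4.14 and 4.68 in GFP-, 4.25, 4.83 and 5.16 in GFP+ and 2.39, 2.46 and 2.63 in aortic cells. It rose by 1.52 (limma, adjusted p = 0.00113) and 2.28 (limma, adjusted p = 1.79e-05) from day 5 and was 2.25 lower in the aorta than in GFP+ cells (limma, adjusted p = 1.98e-05). It was 0.76 higher in GFP+ than in GFP- cells, which passed only with the number as a block (limma, adjusted p = 0.0169, and 0.216 without). Its sample 3 was the lowest of both sorts, as for Hoxa11, and whether its probes also read Hoxa11 was not tested. Mir196a-1 was the only 1 of the 8 that was lower at day 5, and Mir196a-2 was 0.47 lower in the aorta than in GFP- cells.

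The microRNA genes of the clusters were dim, and an array of this kind reads the gene's transcript, not the mature microRNA. The mature sequences of miR-10a, miR-10b and miR-196a (RefSeq, 5′ to 3′) are shown because these families are known to target Hox messages, with the seeds, bases 2 to 8, in capitals.
mmu-miR-10a-5p: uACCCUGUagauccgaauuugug
mmu-miR-10b-5p: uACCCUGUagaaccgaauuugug
mmu-miR-196a-5p: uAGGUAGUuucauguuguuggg
The miR-10a and miR-10b sequences share a seed, and miR-196a has another. Mir10a lies in the Hoxb cluster beside Hoxb4. Its level was 1.93 in aortic cells against 1.23 in GFP+ cells, higher by 0.70 (limma, adjusted p = 0.00109). Hoxb2 and Hoxb3 were higher there too, but Hoxb4 did not pass (4.44 against 4.31). Mir10b lies in the Hoxd cluster and did not pass in any comparison (means 1.48 to 1.76). Mir196a-1 lies in the Hoxb cluster beyond Hoxb9 and was 2.74 at day 5, 3.65 in GFP+ cells and 2.92 in aortic cells, a rise of 0.92 (limma, adjusted p = 0.000788) and a fall of 0.74 (limma, adjusted p = 0.00422).

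Of 9 cofactor genes 6 were higher and 1 lower at day 5, with Meis2 up by 3.06. Meis1 then rose by 1.79 in GFP- and 2.56 in GFP+ cells, where 2 of 9 and 3 of 9 cofactors were higher and 1 and 2 lower. Between the sorts 0 of 9 passed, and Meis1 (0.77) and Meis2 (1.08) were higher in GFP+ cells with the block. In the aorta 0 were higher and 4 lower than in GFP+ cells (3 lower than in GFP- cells), with Pbx3 at -2.04 and Pbx2 at -1.41.

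Among 6 caudal (Cdx) and ParaHox genes, of which the Cdx genes are known to regulate Hox genes in the embryo, Cdx2 rose by 0.68 at day 5 and fell by 0.62 in GFP- cells. Cdx1 and Gsx2 were 0.40 and 0.44 higher in aortic than in GFP- cells, and no other change passed. Of 12 genes beside the clusters, 4 were higher and 4 lower at day 5. Evx1, at the posterior end of the Hoxa cluster, rose by 1.88 at day 5 and fell by 1.58 in GFP- and 1.43 in GFP+ cells, where 1 gene was higher and 4 lower in each sort. Evx2, the same neighbour of Hoxd13, did not pass in any comparison, while Hoxd13 moved by over 2. Skap2, beside the Hoxa cluster, was 1.38 higher in the aorta than in GFP+ cells, where 2 of the 12 were higher and 3 lower, as against GFP- cells.

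In each comparison some of the 13 genes of retinoic acid metabolism and reception passed, not the same ones throughout. Of all probe sets, 28.8% passed at day 5, and 26.0% in GFP- and 31.2% in GFP+ cells against day 5. Between the sorts 4.53% passed, and in the aorta 37.2% against GFP+ and 41.9% against GFP- cells. These shares stand beside the counts of the other gene lists as well. At day 5, 6 of 13 were higher and 3 lower, and Cyp26a1, the enzyme that degrades retinoic acid and one of its targets, rose by 3.61. It fell by 0.98 in GFP- and 2.82 in GFP+ cells and was 1.84 lower in GFP+ than in GFP- cells (limma, adjusted p = 6.6e-05). At day 13, 5 were higher and 2 lower in GFP-, 6 and 2 in GFP+ cells, with Dhrs3 up by 2.65 and 3.17. Between the sorts 3 of 13 were higher in GFP+ cells and 1 lower, with the receptor Rarb up by 0.89, and with the block 5 were higher and 1 lower. In the aorta 3 were higher and 6 lower than in GFP+ cells (5 and 5 against GFP-), with the binding protein Crabp2 at -3.54.

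Of 17 Polycomb and trithorax genes, 5 were higher and 7 lower at day 5, with Cbx7 falling by 2.89 and Phc1 by 1.87. Ezh2, a methyltransferase of the silencing complex, fell by 0.94 in GFP- and 1.50 in GFP+ cells. It was 0.56 lower in GFP+ than in GFP- cells and 1.94 lower again in the aorta. Ezh1, on the same list, went the other way in the aorta. It averaged 6.53 at day 5, 7.20 in GFP-, 6.85 in GFP+ and 7.94 in aortic cells. Counts were 2 higher and 5 lower in GFP-, 1 and 6 in GFP+, and 0 and 1 between the sorts (0 and 3 with the block). The aorta had 4 higher and 7 lower than GFP+ and 3 and 7 than GFP- cells.

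Markers of limb and posterior mesenchyme were counted beside the posterior genes. Against day 5, 5 of 6 were higher in GFP- and 4 of 6 in GFP+ cells, and in the aorta 2 were higher and 3 lower than in GFP+ cells. Pitx1, a hindlimb factor, rose by 1.24 and 1.70 and was 2.05 lower in the aorta than in GFP+ cells. Tbx4, also of the hindlimb and of umbilical and lung mesenchyme, rose by 0.76 and 1.32 and was 1.37 lower in the aorta. Tbx5, of the forelimb and heart, rose by 0.78 in GFP- cells, was 0.24 higher in GFP+ cells without passing, and was 1.72 higher in the aorta than in GFP+ cells. Between the sorts 1 of 6, Prrx1, was higher in GFP+ cells, and 2, Prrx1 and Tbx4, with the block. Prrx1, a general limb mesenchyme factor, rose by 3.66 in GFP+ cells and did not pass between aortic and GFP+ cells. These genes were listed with earlier results of the same data known.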

How the data were processed

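Total RNA of 15 samples was measured on Affymetrix Mouse Gene 2.0 ST arrays, 1 array a sample. The deposited values are log2 expression values that the authors made by RMA (affy 1.36.1 in R 2.15.1, per the submitters' processing notes) and their log2 scale was inferred from their range. No source used here names the authors' genome build. Probe sets carry Entrez IDs and 23740 of 25206 were named through the mouse RefSeq table. Counts cover all members, and 1 Hox gene and 1 cofactor are not reported here by name or figure.

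All samples entered 1 limma model (3.58.1, R 4.3.3) with a mean per group, moderated variances (10 residual and 5.09 prior degrees of freedom) and Benjamini-Hochberg adjustment over all probe sets within each of 6 comparisons, threshold 0.05. No filter was applied. The fit was checked on simulated data with independent noise in each sample. This check does not cover the correlation between same-numbered day 13 samples. Errors are SE of a difference unless SD is named. Depth does not apply to arrays, and 3 samples a group limit the precision.

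Same-numbered day 13 samples correlated in their deviations from the group means (r 0.397 to 0.597, unequal numbers -0.500 to 0.345), so these numbers were taken as pairs. Other comparisons gave -0.0140 to 0.0679 and were not paired. No array batches were given.

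Up to 6 members per direction and comparison, past the threshold with groups that do not overlap, were selected. For some of them only the difference is printed, and other members are described for contrast. From each other list up to 2 genes with the largest differences were to be named, and further list genes were chosen after their values were seen. The members and lists (cofactors, caudal and ParaHox, neighbouring, noncoding, retinoic acid, Polycomb and trithorax, and markers of pluripotent, mesodermal, smooth muscle, endothelial, endodermal, neural and limb cells) were chosen with earlier results of these data known. Alternatives were other scalings, variance moderation, a filter on dim probe sets, replicate blocks, fits on 2 groups and omission of single samples.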

Additional observations from a re-analysis of the deposited data

Results flagged for a closer look

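For 3 Hox genes the change from day 5 was larger in GFP+ than in GFP- cells at day 13, by limma's test of GFP+ minus GFP- cells. Both changes are taken from the same day 5 samples. The difference was 1.09 for Hoxc6 (adjusted p = 0.0118), 0.84 for Hoxa11 (adjusted p = 0.00727) and 0.74 for Hoxd10 (adjusted p = 0.0421), each on the log2 scale and each higher in GFP+ in all 3 same-numbered pairs.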

How the results depend on the processing

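Of 91 calls of a Hox gene in a comparison, 19 were lost with some sample left out. Of the 51 selected differences, 0 reversed in 1159 alternative values. These 51 had been chosen as past the threshold with groups that do not overlap. Leaving out a sample could therefore not reverse their sign, and the 0 is no measure of stability for the other differences. Counts of members higher at day 5 than at day 0 (5) were 8 under median centring, and of those lower (3) were 1 under median centring and 1 under repeated quantile normalization. The causes were not tested. GFP+ against GFP- cells gave 3 higher, 0 in a fit on these 2 groups alone (fewer samples), 7 with the fixed replicate block of the paired day 13 samples and 5 without both day 13 samples numbered 3, an alternative chosen after seeing the data. The block changed no other count of members by over 1.5 times. Limiting the test to probe sets above the median level keeps 7 members, and by that construction leaves 2 higher and 0 lower at day 5, 3 and 1 in GFP- and 4 and 1 in GFP+ against day 5, 1 higher in GFP+ than GFP-, 5 and 1 in the aorta against either sort, and 7 that vary. With each sample left out in turn, higher and lower counts were 4 to 6 and 1 to 4 at day 5, 9 to 13 and 3 to 4 in GFP-, 14 to 17 and 3 in GFP+, 1 to 8 and 0 between the sorts, 15 to 16 and 8 to 10 in the aorta against GFP+, 15 to 18 and 3 to 7 against GFP-, and 29 to 32 members varied. Hox levels are low and no detection calls were given, so small differences of dim genes are limited by background.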
